A study of Mus musculus with 44 samples.

Results

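The liver X receptor LXRα, encoded by Nr1h3, and 9 lipid genes that are classical targets of the LXRs were followed in RNA-seq counts from cultured mouse macrophages grown out of bone marrow precursors (BMDMs). The 10 genes were Nr1h3, Abca1, Abcg1, Apoe, Pltp, Mylip, Lpcat3, Srebf1, Scd1 and Scd2, picked by name as members of the LXR pathway from the 24940 genes listed in each count table. Their expression was read in all 44 libraries, which formed 22 groups of 2 replicates in 4 experiments. In the first experiment, NCoR flox/flox BMDMs without Cre (WT) and NCoR flox/flox, LysMCre BMDMs (NKO) received vehicle, IL4, IFNb (interferon β), PolyIC (a double-stranded RNA mimic sensed by TLR3), RANKL (the cytokine that drives osteoclast formation) or KLA (a pure endotoxin that activates TLR4). In the second, wild-type cells received vehicle, KLA, or KLA together with RGFP966, an inhibitor of the histone deacetylase HDAC3. In the third, Pgc1b flox/flox BMDMs without or with LysM-Cre received vehicle or KLA. In the fourth, wild-type cells received DMSO, DMSO with KLA, or KLA with TBK1i, an inhibitor of the kinase TBK1. Ligand treatments lasted 6 h, except for 12 h of RANKL. By the paper's methods, RGFP966 and the TBK1 inhibitor were added when serum starvation began, 12 h before KLA. Their differences therefore include any effect from before KLA. The mice were C57BL/6 animals of 8 to 12 weeks. Both genotypes of a floxed pair carried the floxed alleles, and Cre was driven by LysM, the promoter of the myeloid gene Lyz2, so that deletion was limited to cells in which this promoter had been active. The RANKL cells are listed as BMDMs in the sample records and as osteoclasts in the column names, and no record says whether replicates came from separate mice or cultures. The p-values below therefore measure the spread between libraries, which may be technical.

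LXRs are nuclear receptors that are switched on by oxysterols and by desmosterol, a precursor of cholesterol. They bind DNA as heterodimers with the retinoid X receptor RXR, and without ligand they are known to hold corepressor complexes of NCoR with HDAC3 at their target genes. In macrophages their targets export cholesterol (Abca1, Abcg1, Apoe, Pltp), limit its uptake (Mylip) and build unsaturated fatty acids and phospholipids (Srebf1, Scd1, Scd2, Lpcat3). The study itself named Abca1 and Scd2 among the genes derepressed without NCoR, so these members are not an independent choice.

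All positions are on mm10, and each gene was counted over the exons of the same RefSeq transcript in the 4 tables. Nr1h3 was counted as NM_013839 on the minus strand of chromosome 2, from 91184061 to 91195035. The efflux transporters Abca1 (NM_013454, chromosome 4, 53030789 to 53159895, minus strand) and Abcg1 (NM_009593, chromosome 17, 31057694 to 31117981, plus strand) had 10208 and 5801 bp of exon. Apoe (NM_009696) lies on chromosome 7 from 19696244 to 19699188, and Pltp (NM_011125) on chromosome 2 from 164839518 to 164857708, both on the minus strand. Mylip (NM_153789) occupies 45389742 to 45411940 of chromosome 13, and Lpcat3 (NM_145130) occupies 124663104 to 124704716 of chromosome 6, both on the plus strand. Srebf1 (NM_011480) is found on chromosome 11 from 60199084 to 60220627, on the minus strand. The paralogs Scd1 (NM_009127, 44394450 to 44407709, minus strand) and Scd2 (NM_009128, 44293676 to 44306862, plus strand) are neighbours on chromosome 19. Because their coding sequences are alike, the overlap of the Scd1 and Scd2 transcripts was measured. Of all windows of 36 bases in the Scd1 transcript, 4.52% also occurred in the Scd2 transcript, and 1.66% of windows of 75 bases did. The length of the reads was not given in the sources used here, and how reads matching both genes were assigned is not stated.

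The promoters of 7 of the 10 genes were in a RefSeq-derived table (GRCm38.p6) at the start of the counted transcript. They were searched on both strands for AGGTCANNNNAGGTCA, the direct repeat with 4 free bases (DR4) that LXR and RXR bind together. The window ran from 250 bases before the start to 50 bases after it. No member had a match with up to 2 mismatches, which 3.02% of all 32851 promoters had. When 3 mismatches were allowed, a limit that was raised after this result was seen, Abca1 alone had a match, and 21.9% of all promoters then had one. The match, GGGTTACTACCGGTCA on the strand opposite to the gene, lay at 53159947 to 53159962 of chromosome 4, from base -67 to base -52 before the start. The 250 bases before the start are shown for Abca1 and Pltp, the members with a promoter in the table that were called in each of the 6 NKO comparisons. Capitals mark the DR4-like match in Abca1 (chr4:53159896-53160145, minus strand), whereas Pltp (chr2:164857709-164857958, minus strand) had none in this window.
Abca1: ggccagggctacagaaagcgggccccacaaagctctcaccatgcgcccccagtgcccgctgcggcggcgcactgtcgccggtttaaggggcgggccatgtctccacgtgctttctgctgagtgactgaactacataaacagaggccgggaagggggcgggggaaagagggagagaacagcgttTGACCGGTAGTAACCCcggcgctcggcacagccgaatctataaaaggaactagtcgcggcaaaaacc
Pltp: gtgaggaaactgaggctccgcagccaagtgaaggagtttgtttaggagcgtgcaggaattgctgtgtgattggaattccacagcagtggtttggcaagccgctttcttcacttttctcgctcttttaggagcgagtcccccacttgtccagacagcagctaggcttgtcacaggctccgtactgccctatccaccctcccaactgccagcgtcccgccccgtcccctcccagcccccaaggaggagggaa

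The libraries held 8323493 to 16783155 gene counts, which put 3 counts at 0.179 to 0.36 counts per 1000000 counts (CPM, TMM-scaled within each table), a floor that covers counting error only. Ncor1 ranged from 133 to 215 CPM in the 12 WT libraries and from 49.4 to 65 CPM in the 12 NKO libraries. Ppargc1b ranged from 8.74 to 10.3 CPM at KLA with Cre and from 6.78 to 7.81 CPM without it. The third experiment's deletion could thus not be seen in the RNA counts of its targeted gene. The paper examined PGC1β, the protein of Ppargc1b, in BMDMs of these genotypes by immunoblot, and RNA counts do not measure that protein. Lyz2, the locus that carries LysM-Cre, was at 8108 and 8325 CPM in Pgc1b_flox_Veh and at 4397 and 4422 CPM in Pgc1b_flox_Cre_Veh, and at 9288 and 9129 CPM in WT_Veh and 4581 and 4626 CPM in NKO_Veh. The date stamps in the library names differed at KLA, where NKO_KLA was stamped 1401 days before WT_KLA. The 10 libraries with at most 1 Xist count were the 8 of the Pgc1b experiment and both NKO_KLA libraries, whereas the other 34 had 5206 or more. Xist is transcribed in female cells. At KLA the NKO genotype can therefore not be told apart from the date or from what set the Xist counts. Macrophage markers were high throughout (7 genes, summed group means of 9730 to 23877 CPM). The 6 neutrophil and granulocyte precursor markers summed to 730 CPM in WT_RANKL and 1064 CPM in NKO_RANKL but to at most 8.25 CPM in the other groups of the first experiment. The 3 stromal markers summed to 178 and 233 CPM in the same RANKL groups, to 75.4 and 53.2 CPM in WT_Veh and NKO_Veh, and to 0.911 and 7.03 CPM in WT_KLA and NKO_KLA. T cell markers summed to at most 0.383 CPM and adipocyte markers to at most 5.04 CPM, nearly all of it Adipoq in NKO_IL4. B cell and erythroid markers summed to at most 3.68 and 0.70 CPM. The 3 mast cell markers were called higher in NKO_RANKL than in WT_RANKL (sums of 5.95 and 1.71 CPM). Dendritic cell markers summed to 11.2 CPM in NKO_KLA and 2.98 CPM in WT_KLA. The 5 osteoclast markers summed to 91.5 and 108 CPM in WT_RANKL and NKO_RANKL, beside 59.8 and 147 CPM in WT_Veh and NKO_Veh. The WT_RANKL sum was thus above WT_Veh and near WT_KLA (91.0 CPM), while the NKO_RANKL sum was below NKO_Veh. Acp5 had the highest mean of the 5 in this experiment (51.5 CPM). The part of these cells in the results below was not tested, and in bulk RNA fewer cells of a type and less RNA per cell cannot be told apart.

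In resting WT macrophages the members spanned a wide range of levels. On a per-length scale (TPM, transcripts per 1000000 transcripts), Apoe was the most abundant of them at 5605 and 5699 TPM in the 2 WT_Veh libraries. Pltp, which transfers phospholipids between lipoproteins, followed at 2594 and 2790 TPM. The transporters were lower, with 288 and 294 TPM for Abcg1 and 175 and 179 TPM for Abca1. Mylip (81 and 81.9 TPM) and Nr1h3 (69 and 80.7 TPM) came next, and neighbours below them were Srebf1 (53.2 and 59.5 TPM) and Lpcat3 (49.3 and 52.3 TPM). The desaturases were at the bottom of the order. Scd2 stood at 15.6 and 19.2 TPM and Scd1 at 2.05 and 2.41 TPM. In this order the libraries of neighbouring genes did not overlap.

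**Figure D1:**
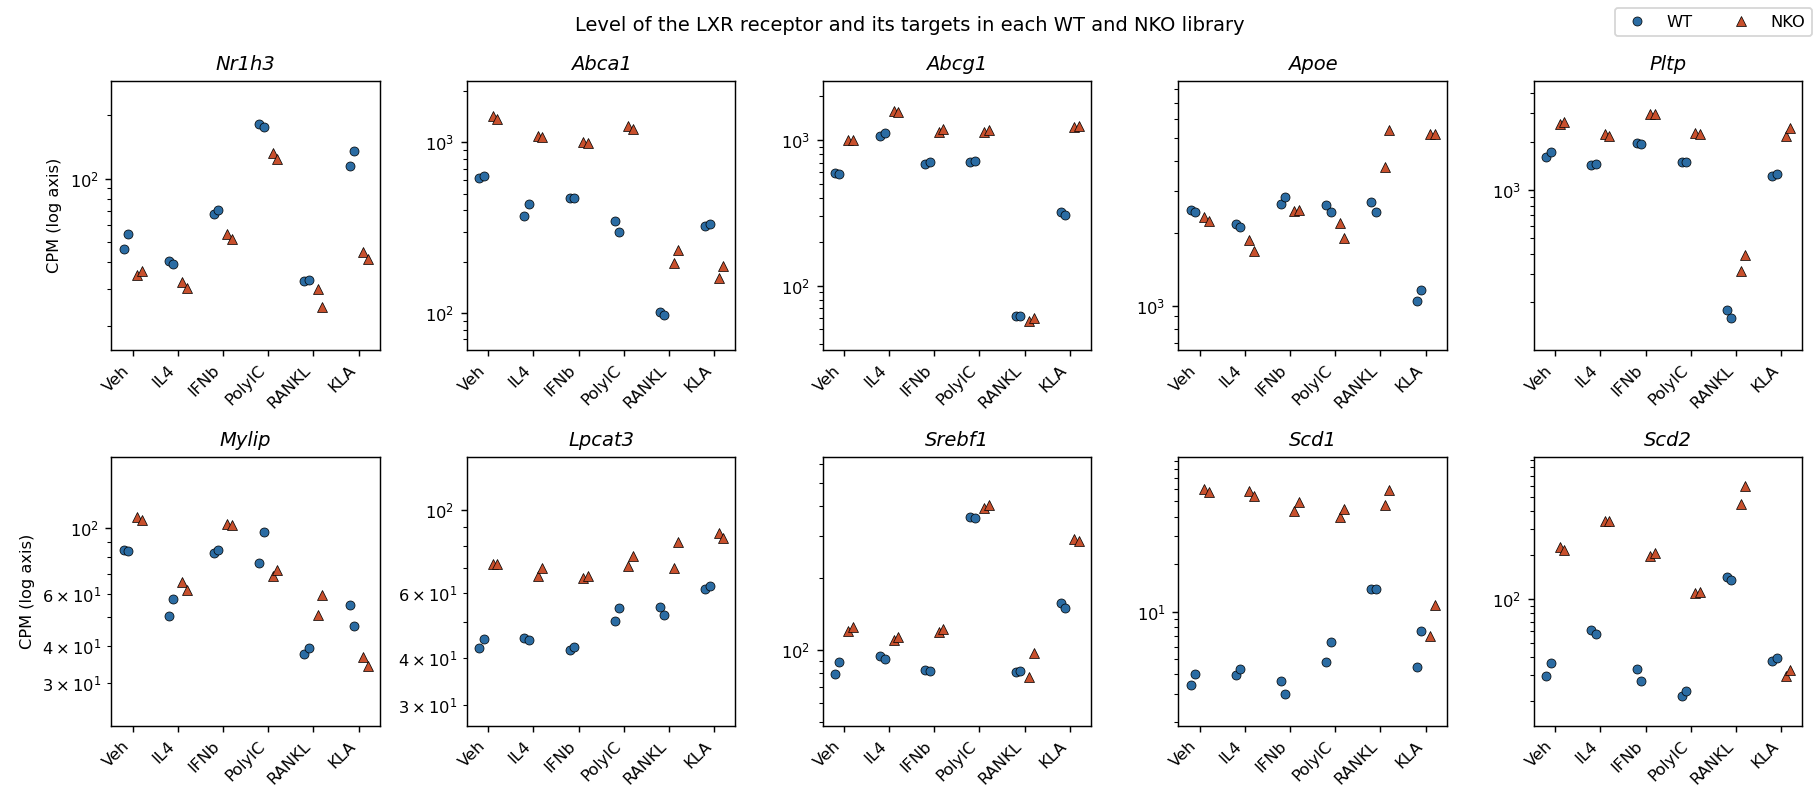
Level of each member in CPM (log axis) in the 24 WT and NKO libraries by condition, with 1 point per library. Scd1 and Scd2 show the widest gap between genotypes outside KLA, Pltp and Abcg1 drop at RANKL in both genotypes, and Apoe at KLA is at 1041 and 1156 CPM in WT and at 5230 and 5223 CPM in NKO.

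The first comparison asked which members differed between NKO and WT cells in each condition. The NKO cells also carried LysM-Cre, which the WT cells lacked. Under vehicle, 6 of the 10 members were called higher in NKO and none lower, where a call is an adjusted p below 0.05 in edgeR's quasi-likelihood test with a fold change over 1.5. Among all 13407 genes tested, 2.40% were called higher and 3.80% lower. The members called were Abca1, Abcg1, Pltp, Lpcat3, Scd1 and Scd2. The median log2 fold change of the 10 members was 0.68, against -0.01 for all genes tested. At IFNb 6 were called higher (all genes, 1.86% higher and 1.94% lower), at IL4 5 (1.90% and 2.33%) and at PolyIC 5 (3.01% and 2.92%), and none lower.

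For IL4 and IFNb the NKO difference was not called as departing from vehicle in any member (interaction terms, beside 0.351% of all genes higher and 0.254% lower for IL4, and 0.552% and 0.0522% for IFNb). At an adjusted p below 0.05 alone, for which no share of all genes is given, 1 member departed at IL4, Abcg1 (-0.25), and none at IFNb. For PolyIC 3 members had a called interaction term, beside 2.13% and 1.10% of genes.

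Scd1 and Scd2, which place the first double bond into saturated fatty acids, differed most. Scd1 was at 3.44 and 4.04 CPM in WT_Veh and at 59.9 and 57.5 CPM in NKO_Veh. Scd2 was at 29.4 and 36.2 CPM in WT_Veh and at 229 and 218 CPM in NKO_Veh. Every NKO library was thus several times above either WT library for both genes. The log2 fold changes were 3.97 ± 0.15 (SE) for Scd1, or 15.6-fold (adjusted p = 8.5e-24), and 2.76 ± 0.12 for Scd2, or 6.79-fold (adjusted p = 6.0e-11). The Scd1 difference stayed large at IL4 (3.76), IFNb (3.79) and PolyIC (2.92) on the log2 scale, as did that of Scd2 (2.52, 2.74 and 2.30). At PolyIC the NKO difference of Scd1 was smaller than under vehicle by 1.04 ± 0.27 on the log2 scale (interaction term, adjusted p = 0.009), which was no longer called without WT_PolyIC replicate 2 (adjusted p = 0.1785) or with Scd1 and Scd2 summed (adjusted p = 0.1802). Scd1 made up from 5.99% to 28.5% of the summed Scd1 and Scd2 counts over all 44 libraries. It was 10.5% and 10.0% in the WT_Veh libraries and 20.8% and 20.9% in the NKO_Veh libraries, so the genes did not keep a fixed ratio. With the counts of both genes summed, the NKO calls at vehicle, IL4, IFNb and PolyIC held. The sum is mostly Scd2, which was itself called in these conditions, so this outcome does not test for reads shared by the genes. Likewise the summed interaction term at PolyIC follows that of Scd2, which was not called (-0.47, interaction term, adjusted p = 0.196).

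Among the export genes, Abca1, which loads cholesterol onto apolipoproteins, was at 620 and 632 CPM in WT_Veh and at 1426 and 1367 CPM in NKO_Veh. At PolyIC it was at 346 and 298 CPM in WT and at 1245 and 1200 CPM in NKO. The NKO libraries of both conditions thus lay above every WT library, while the WT libraries at PolyIC were well below those under vehicle. The log2 fold change was 1.16 ± 0.08 under vehicle (2.23-fold, adjusted p = 2.7e-10) and 1.92 ± 0.08 at PolyIC (3.80-fold, adjusted p = 1.0e-13). The increase at PolyIC exceeded that under vehicle by 0.77 ± 0.11 (interaction term, adjusted p = 9.8e-05). At IL4 and IFNb, Abca1 was higher in NKO by 1.41 and 1.08 on the log2 scale.

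Abcg1, the transporter that hands cholesterol to high-density lipoprotein, was at 592 and 581 CPM in WT_Veh and 1008 and 1001 CPM in NKO_Veh. Its libraries did not overlap, with a log2 fold change of 0.78 ± 0.05 (1.71-fold, adjusted p = 4.6e-20). It was called at IFNb (0.75) and PolyIC (0.70) too, whereas at IL4 the difference of 0.53 ± 0.05 was short of the fold limit. Pltp was at 1611 and 1730 CPM in WT_Veh and at 2570 and 2647 CPM in NKO_Veh, a log2 fold change of 0.64 ± 0.07 (adjusted p = 2.9e-08). It is the single member that was called higher in NKO in all 6 conditions, with log2 fold changes of 0.59 to 1.06. The lowest of these, at PolyIC, was below the fold limit with DESeq2 (0.56). Apoe, the apolipoprotein that accepts cholesterol, had values of 2508 and 2463 CPM in WT_Veh and of 2340 and 2257 CPM in NKO_Veh. Unlike the transporters it was not called in NKO under vehicle (-0.11 ± 0.13, adjusted p = 0.62), IL4 (-0.27), IFNb (-0.14) or PolyIC (-0.30).

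Of the remaining targets, Lpcat3, which inserts polyunsaturated fatty acids into phospholipids, was at 42.6 and 45.2 CPM in WT_Veh and at 71.7 and 71.6 CPM in NKO_Veh. Its log2 fold change of 0.71 ± 0.07 was called (adjusted p = 1.3e-12), as were 0.60 at IL4 and 0.65 at IFNb, the former not without NKO_IL4 replicate 2 (0.57). Srebf1, the gene of the lipogenic factor SREBP1, had 79.6 and 88.9 CPM in WT_Veh and 120 and 125 CPM in NKO_Veh. Its 1.46-fold difference (0.54 ± 0.06, adjusted p = 5.7e-10) was just under the fold limit and passed it without WT_Veh replicate 2 (0.62). Mylip, a ubiquitin ligase that limits the uptake of lipoprotein cholesterol, was called in none of the 6 NKO comparisons, where its log2 fold change ranged from -0.51 to 0.52. Each missed the fold limit, while the adjusted p in edgeR was at most 0.031. Mylip was higher in NKO under vehicle (0.36), IL4 (0.24), IFNb (0.31) and RANKL (0.52), and lower at PolyIC (-0.30) and KLA (-0.51).

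The receptor itself lay on the other side of 0 from most of its targets. Nr1h3 was at 46.6 and 54.4 CPM in WT_Veh and at 35 and 36.3 CPM in NKO_Veh. Both NKO libraries lay below both WT libraries, and the same held at IL4, IFNb, PolyIC and RANKL. The log2 differences in these 5 conditions were -0.50, -0.36, -0.38, -0.48 and -0.26, with adjusted p from 8.2e-08 to 0.026, and none passed the fold limit. Without WT_Veh replicate 1 the vehicle difference was called (-0.61). Nr1h2, which encodes the sister receptor LXRβ, was not called in NKO in any of the 6 conditions.

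**Figure D2:**
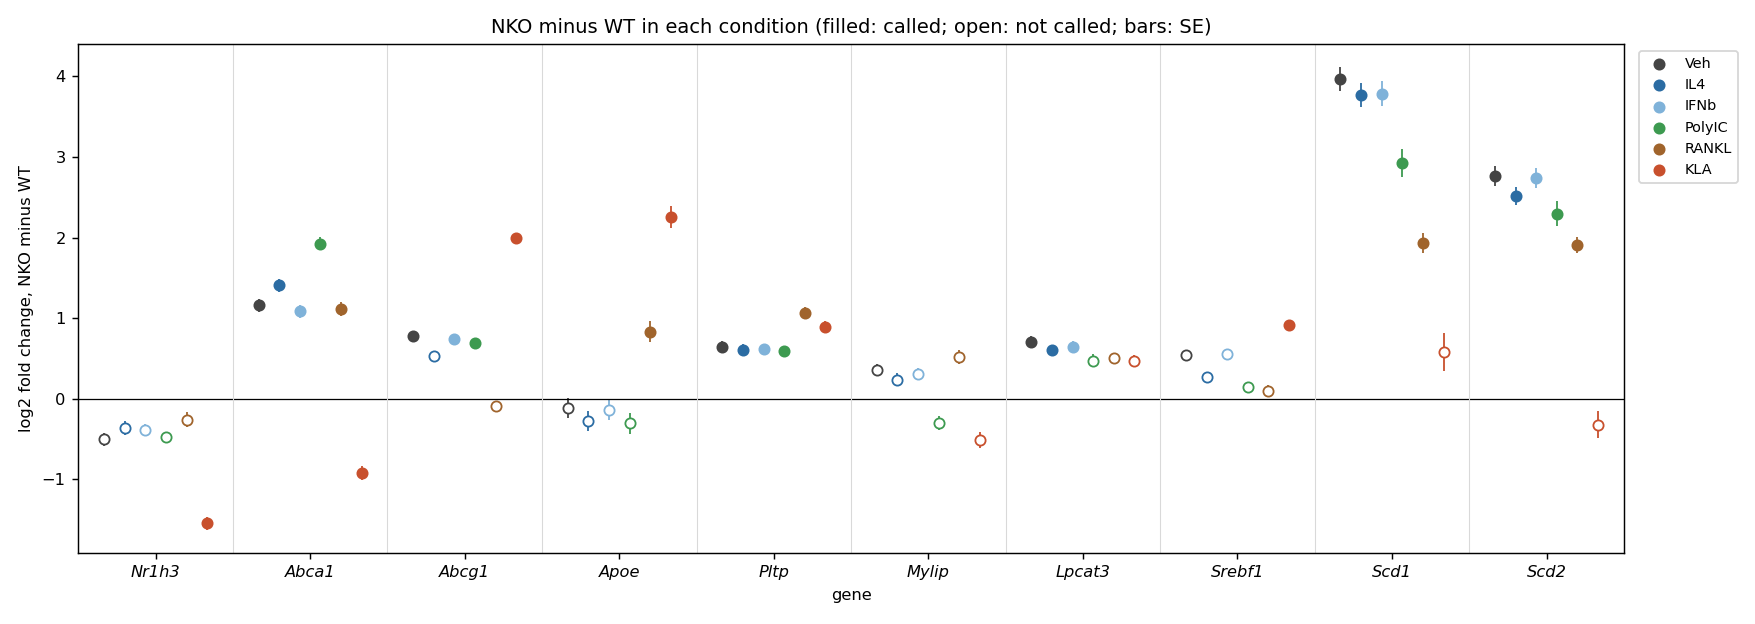
Log2 fold change of each member between NKO and WT in the 6 conditions, from edgeR, with the SE as bars, filled points for called differences and open points for the others. Scd1 and Scd2 reach 3.97 and 2.76 under vehicle, Pltp is filled in all 6 conditions, and at KLA (red) Abca1 and Nr1h3 are below 0 while Abcg1 and Apoe are near or above 2.

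RANKL libraries differed from this pattern. 5 members were called higher in NKO_RANKL and none lower, beside 6.21% and 6.99% of all genes. Scd1 rose from 13.9 CPM in both WT_RANKL libraries to 47.2 and 59 CPM in NKO_RANKL (log2 fold change 1.93 ± 0.12, adjusted p = 7.4e-17). Scd2 was at 141 and 136 CPM in WT_RANKL and at 451 and 592 CPM in NKO_RANKL (1.91 ± 0.10, adjusted p = 3.6e-10). The desaturases were thus already higher in WT cells at RANKL than under vehicle, and the NKO difference was smaller than under vehicle by 2.04 and 0.85 on the log2 scale (interaction terms, adjusted p = 3.1e-10 and 6.8e-04). Abcg1 was not called here (62.2 and 62.3 CPM in WT, 57.6 and 59.6 CPM in NKO), and its NKO difference was 0.86 lower than under vehicle (adjusted p = 1.7e-13). Pltp was at 179 and 160 CPM in WT_RANKL and at 313 and 396 CPM in NKO_RANKL (1.06 ± 0.07, adjusted p = 2.5e-12). Abca1 was at 101 and 96.9 CPM in WT_RANKL against 196 and 234 CPM in NKO_RANKL (1.12 ± 0.09, adjusted p = 1.4e-09). The desaturases and Abcg1 were among 4 members with a called interaction at RANKL, beside 7.26% and 6.97% of genes. Lpcat3 (0.50) and Mylip (0.52) passed the fold limit when NKO_RANKL replicate 1 was left out (0.62 and 0.63). Apoe was at 2711 and 2453 CPM in WT_RANKL and at 3776 and 5416 CPM in NKO_RANKL. Its call (0.83 ± 0.13, adjusted p = 1.9e-04) rests on NKO_RANKL replicate 2, without which it was 0.55 and below the fold limit, and it was lost when the RANKL libraries were fitted alone (adjusted p = 0.146).

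With KLA the NKO comparison looked different. 4 members were called higher in NKO_KLA and 2 lower, at a background of 21% of all genes called higher and 19% lower, so that the shares called are to be read against a much wider change. Apoe was at 1041 and 1156 CPM in WT_KLA and at 5230 and 5223 CPM in NKO_KLA (log2 fold change 2.25 ± 0.14, adjusted p = 3.9e-09). Abcg1 was at 318 and 306 CPM in WT_KLA and at 1231 and 1254 CPM in NKO_KLA (1.99 ± 0.05, adjusted p = 2.1e-39). Each NKO library was several times above either WT library for both genes. Pltp (0.89 ± 0.07) and Srebf1 (0.92 ± 0.06) were also called higher, with libraries that did not overlap.

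Abca1 and Nr1h3 went the other way at KLA. Abca1 was at 325 and 332 CPM in WT_KLA and at 160 and 188 CPM in NKO_KLA (-0.92 ± 0.09, adjusted p = 6.9e-09). Nr1h3 was at 115 and 136 CPM in WT_KLA and at 44.7 and 41.3 CPM in NKO_KLA (-1.54 ± 0.08, adjusted p = 5.7e-25). For Abca1 this is a change of direction against vehicle, and the interaction term was -2.08 ± 0.12 (adjusted p = 1.9e-12). Scd1 and Scd2 were not called at KLA (0.58 ± 0.24 and -0.32 ± 0.17), and their NKO differences were 3.38 and 3.08 lower on the log2 scale than under vehicle (adjusted p = 1.0e-11 and 4.7e-09). In all, 7 members had a called interaction at KLA, beside 19.9% of genes higher and 17% lower. Scd1 was called higher without NKO_KLA replicate 1 (0.88) or WT_KLA replicate 2 (1.013), and Mylip was called lower without the latter (-0.62).

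Since NKO_KLA differed from WT_KLA in date and in Xist, it was also set against the 3 other control KLA groups in a joint fit of 11036 genes, in which 23.2%, 17% and 19.4% of genes were called higher against KLA, Pgc1b_flox_KLA and DMSO_KLA, and 23%, 19.4% and 21.6% lower (21.1% and 21.4% against WT_KLA). Abcg1 was called higher in NKO_KLA against each of them, with log2 fold changes of 1.05 against KLA of the RGFP966 experiment, 2.01 against DMSO_KLA and 2.29 against Pgc1b_flox_KLA. Apoe (0.74, 1.22 and 2.11) and Pltp (1.07, 0.92 and 2.44) were called higher against all 3 as well. Nr1h3 (-1.99, -1.31 and -0.75) and Abca1 (-1.44, -1.34 and -0.59) were called lower against all 3. Like NKO_KLA, the Pgc1b_flox_KLA libraries had at most 1 Xist count. Srebf1 was called against KLA (1.68) and Pgc1b_flox_KLA (1.46) but not against DMSO_KLA (0.36), whereas Mylip was called lower against KLA (-1.40) and DMSO_KLA (-1.31) and not against Pgc1b_flox_KLA (0.13). Lpcat3 was called higher against KLA (0.61) and Pgc1b_flox_KLA (0.60) and not against DMSO_KLA (0.28). Scd1 was called higher against KLA (1.49) and not against Pgc1b_flox_KLA (-0.40) or DMSO_KLA (-0.56). Scd2 was called lower against DMSO_KLA (-1.09) and not against KLA (0.41) or Pgc1b_flox_KLA (-0.47). All these comparisons use the same 2 NKO_KLA libraries, whose date stamp no control group shared, so they are not independent of each other and do not separate genotype from date.

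The next question was how the stimuli themselves moved the members. IFNb gave no call among the 10 genes in WT or NKO cells, although 4.09% of all genes were called higher and 2.37% lower in WT cells (5.65% and 2.73% in NKO cells). The share of all genes at an adjusted p below 0.05 alone is not given here. By that limit the members' IFNb responses numbered 4 in WT and 5 in NKO, Nr1h3 among them (0.46 in WT and 0.58 in NKO). The latter was called without NKO_IFNb replicate 2 or NKO_Veh replicate 2 (both 0.61). IL4 raised Abcg1 (from 592 and 581 CPM to 1072 and 1122 CPM, log2 fold change 0.90 ± 0.05) and Scd2 (0.87 ± 0.13) in WT cells. It lowered Abca1 (-0.63 ± 0.08) and Mylip (-0.63 ± 0.08), 4 calls beside 6.63% of genes called higher and 6.46% lower. The IL4 calls of Abca1 and Mylip were both lost without WT_IL4 replicate 1 (-0.52 and -0.54). In NKO cells, where 6.71% of genes were called higher and 5.42% lower, IL4 raised Abcg1 (0.65 ± 0.05) and Scd2 (0.62 ± 0.10) and lowered Mylip (-0.75 ± 0.07). The Scd2 call was lost without NKO_Veh replicate 2 (0.58).

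PolyIC raised the receptor and Srebf1 and lowered Abca1 in WT cells, with 22.2% of all genes called higher and 25.0% lower. Nr1h3 went to 182 and 176 CPM (log2 fold change 1.83 ± 0.07, adjusted p = 5.1e-32) and Srebf1 to 362 and 358 CPM (2.10 ± 0.06, adjusted p = 7.0e-38). Abca1 fell by 0.96 ± 0.08 (adjusted p = 8.4e-10). Scd2 (-0.54 ± 0.17) was short of the fold limit and passed it without WT_Veh replicate 1 (-0.68) or WT_PolyIC replicate 2 (-0.61). Scd1 (0.57 ± 0.25) did so without WT_Veh replicate 2 (0.69) or WT_PolyIC replicate 1 (0.77). In NKO cells Nr1h3 (1.85) and Srebf1 (1.70) rose likewise, beside 21% of genes called higher and 22.1% lower, but Abca1 was at -0.19 and not called, while Scd2 (-1.01 ± 0.11) and Mylip (-0.61 ± 0.08) fell. Mylip was not called without NKO_PolyIC replicate 1 (-0.58).

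RANKL lowered 3 of the export genes and raised the desaturases, at a background in WT cells of 24.1% of genes called higher and 19.8% lower. Relative to vehicle, Pltp fell by 3.30 ± 0.08, Abcg1 by 3.24 ± 0.06 and Abca1 by 2.66 ± 0.09 on the log2 scale in WT cells, and Mylip fell by 1.13 ± 0.08. Nr1h3 fell by 0.63 ± 0.08, a call that was lost without WT_Veh replicate 2 (-0.51). Scd1 (1.89 ± 0.18) and Scd2 (2.08 ± 0.12) rose, and Apoe was not called (0.05 ± 0.13). In NKO cells (25.3% and 20.0% of genes called) the falls of Abcg1 (-4.10), Pltp (-2.88), Abca1 (-2.70) and Mylip (-0.97) recurred. There Scd2 rose by 1.22 ± 0.10 from its already higher vehicle level, and Scd1 was not called (-0.15 ± 0.10). Apoe rose by 1.00 ± 0.13 in NKO cells, which was not called when the compared groups were fitted alone (adjusted p = 0.0595). The RANKL cells differ from the vehicle cells in date, time of treatment, and granulocyte and stromal markers, which cannot be told apart from the ligand.

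KLA was the stimulus tested in every experiment. In the other 3 experiments the KLA and vehicle libraries of the control cells shared a date stamp, whereas WT_KLA was stamped 115 days before WT_Veh, so that in WT cells KLA and date cannot be told apart. Nr1h3 was called higher after KLA in all 4 control sets. It went from 46.6 and 54.4 CPM to 115 and 136 CPM in WT, and from 52.7 and 51.8 CPM to 133 and 145 CPM in the RGFP966 experiment. In Pgc1b_flox cells it went from 16 and 15.8 CPM to 72.4 and 70.1 CPM. In DMSO cells it went from 23.6 and 24.5 CPM to 98.2 and 108 CPM. The KLA libraries were above the vehicle libraries each time, with log2 fold changes of 1.31, 1.41, 2.16 and 2.09. In these comparisons 25.4%, 27.9%, 22.8% and 29.6% of all genes were called higher, and 32.3%, 32.2%, 25.7% and 29.3% lower. The members called higher and lower were 3 and 4 in WT, 1 and 3 in the RGFP966 experiment, 1 and 2 in Pgc1b_flox cells, and 3 and 2 in DMSO cells. In NKO cells the Nr1h3 response was 0.27 ± 0.08 and not called. It was 1.04 ± 0.11 lower than in WT (interaction term, adjusted p = 1.0e-11), but NKO_KLA differed from NKO_Veh in date and in Xist.

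The targets had no common direction after KLA. Abca1 fell in 3 of the 4 control sets (-0.93 in WT, -0.63 in the RGFP966 experiment and -0.60 in DMSO cells), and was 0.48 ± 0.07 in Pgc1b_flox cells, short of the fold limit. The last 2 falls were close to that limit and were not called without KLA replicate 1 (-0.57) and without either DMSO_KLA replicate 2 or DMSO_Veh replicate 2 (-0.56 and -0.57). Abcg1 was called lower in WT (-0.91) and DMSO cells (-0.90) and not in the others (-0.11 and -0.08). Apoe was called in WT (-1.18 ± 0.13), the set in which KLA and vehicle differed in date, and not in the other 3 sets (-0.30 to 0.23). Pltp was called in none of the 4 sets (-0.43 to -0.11). Srebf1 was above 0 in all 4 and called in WT (0.86) and DMSO cells (1.31).

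The desaturases split by experiment. Scd2 went from 222 and 199 CPM to 40.5 and 44.5 CPM in Pgc1b_flox cells (-2.31 ± 0.09) and from 52.6 and 50.9 CPM to 18.2 and 19.7 CPM in the RGFP966 experiment (-1.45 ± 0.09). It was nearly level in DMSO cells (65.3 and 62.6 CPM before, 66.1 and 60.9 CPM after) and in WT cells (29.4 and 36.2 CPM before, 37.8 and 39.7 CPM after). Vehicle levels of Scd2 thus differed between experiments before any KLA was given. Scd1 was called lower in the RGFP966 experiment (-1.02 ± 0.24) and in Pgc1b_flox cells (-0.60 ± 0.19), and higher in WT cells (0.67 ± 0.27). With counts of 27 to 59 per library in the WT comparison, that last call was lost without WT_KLA replicate 2 (0.24) or WT_Veh replicate 1 (0.56), and the Pgc1b_flox call was lost without Pgc1b_flox_KLA replicate 2 (-0.45) or Pgc1b_flox_Veh replicate 1 (-0.38). In NKO cells, where the desaturases started high, Scd1 (-2.72 ± 0.13) and Scd2 (-2.84 ± 0.13) fell after KLA together with Abca1 (-3.01 ± 0.09) and Mylip (-1.59 ± 0.08), while Apoe (1.18 ± 0.13) and Srebf1 (1.24 ± 0.06) rose. In that contrast 28.4% of genes were called higher and 32.8% lower. NKO_KLA also differed from NKO_Veh in date and in Xist, which cannot be told apart from KLA there. In Pgc1b flox cells with Cre, Nr1h3 rose (1.15 ± 0.12) and Abcg1 (-1.36 ± 0.07) and Scd2 (-2.05 ± 0.08) fell, beside 19.2% of genes called higher and 20.6% lower.

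**Figure D3:**
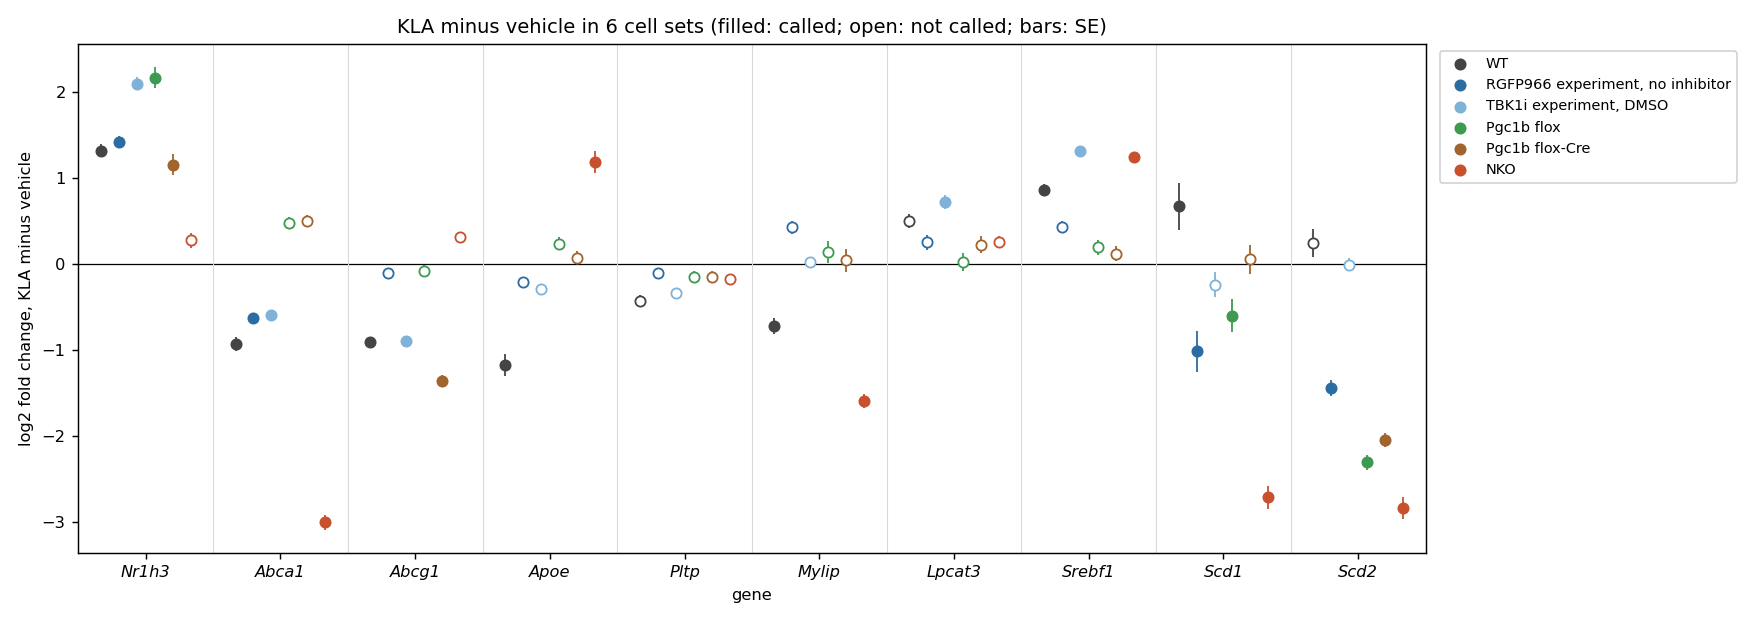
Log2 fold change of each member between KLA and vehicle in 6 cell sets, with the SE as bars, filled points for called differences and open points for the others. Nr1h3 is above 1 in 5 sets and at 0.27 in NKO, whereas Scd2 ranges from -2.84 in NKO to 0.24 in WT. The NKO libraries at KLA and vehicle also differ in date and in Xist, and those of WT in date.

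Inhibition of HDAC3, the deacetylase carried by NCoR, was examined in cells given KLA with RGFP966. 4 members were called higher than with KLA alone and 1 lower, beside 15.8% and 9.54% of all genes. Scd1 was at 2.58 and 2.55 CPM with KLA and at 10.9 and 9.15 CPM with RGFP966 (log2 fold change 1.96 ± 0.23, adjusted p = 6.2e-12). Scd2 was at 18.2 and 19.7 CPM with KLA and at 57.5 and 51.4 CPM with RGFP966 (1.52 ± 0.10, adjusted p = 4.7e-24). The RGFP966 libraries of Scd2 thus lay near the vehicle libraries (52.6 and 50.9 CPM), and those of Scd1 lay above them (4.78 and 5.65 CPM). Abca1 was at 367 and 394 CPM with KLA and at 707 and 633 CPM with the inhibitor (0.82 ± 0.06, adjusted p = 1.3e-21), and Pltp at 922 and 849 CPM and at 1385 and 1412 CPM (0.66 ± 0.05, adjusted p = 4.1e-18). Nr1h3 was lower, with 133 and 145 CPM with KLA and 82.1 and 87.5 CPM with the inhibitor (-0.71 ± 0.07, adjusted p = 4.2e-15). Abcg1 was at 525 and 446 CPM and at 337 and 331 CPM. Its difference of -0.54 ± 0.06 missed the fold limit and passed it with DESeq2 (-0.61) and without KLA replicate 2 (-0.67). Neutrophil markers summed to 21.6 CPM with RGFP966 and to 5.71 CPM with KLA alone, and their part was not tested. The RGFP966 libraries were stamped 14 days apart, and no RGFP966 group without KLA was analysed here.

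In Pgc1b flox cells, no member was called with LysM-Cre under vehicle, where 0.164% of all genes were called higher and 0.139% lower. Abca1 (0.29 ± 0.06, adjusted p = 0.018) was the 1 member with an adjusted p below 0.05 there, and it was below the fold limit. At KLA 3 members were called, beside 13.2% of genes called higher and 12.9% lower. Abcg1 was at 258 and 242 CPM in Pgc1b_flox_KLA and at 109 and 110 CPM in Pgc1b_flox_Cre_KLA (-1.20 ± 0.07, adjusted p = 1.1e-16). Nr1h3 was at 72.4 and 70.1 CPM without Cre and at 39.5 and 35.6 CPM with it (-0.93 ± 0.12, adjusted p = 2.5e-08). In the vehicle libraries Abcg1 was at 262 and 268 CPM without Cre and at 284 and 278 CPM with it, and Nr1h3 was at 16 and 15.8 CPM and at 17.7 and 16 CPM. The Cre difference at KLA thus exceeded that at vehicle for both genes (interaction terms -1.28 ± 0.09 for Abcg1 and -1.01 ± 0.18 for Nr1h3, adjusted p = 2.2e-13 and 1.7e-05, beside 11.6% of genes higher and 11.2% lower). Scd1 was at 13 and 10.2 CPM without Cre and at 21.5 and 18.5 CPM with it (0.78 ± 0.19, adjusted p = 0.001), a call that was lost with Scd1 and Scd2 summed (0.49). That sum is mostly Scd2, which was itself not called (0.40). Since Ppargc1b counts did not fall with Cre while Lyz2 was lower, these values compare the libraries labelled with and without Cre.

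TBK1 inhibition was examined in the same way. With TBK1i, 1 member was called higher and 2 lower, beside 15% and 18.3% of all genes. Abca1 was at 431 and 415 CPM in DMSO_KLA and at 817 and 790 CPM in TBK1i_KLA (0.93 ± 0.04, adjusted p = 2.1e-120). It thereby exceeded its DMSO_Veh level of 629 and 655 CPM. Abcg1 was at 300 and 295 CPM in DMSO_KLA and at 160 and 163 CPM in TBK1i_KLA (-0.88 ± 0.05, adjusted p = 4.0e-77), and Nr1h3 was at 98.2 and 108 CPM and at 35.7 and 38.9 CPM (-1.47 ± 0.08, adjusted p = 1.2e-72). Scd2 (-0.56 ± 0.08) and Scd1 (-0.35 ± 0.17) were not called. Scd2 passed the fold limit without DMSO_KLA replicate 2 (-0.61) or TBK1i_KLA replicate 1 (-0.62). Each experiment was fitted on its own, with 2 libraries per group, so the sizes of p-values are not to be compared between experiments.

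**Figure D4:**
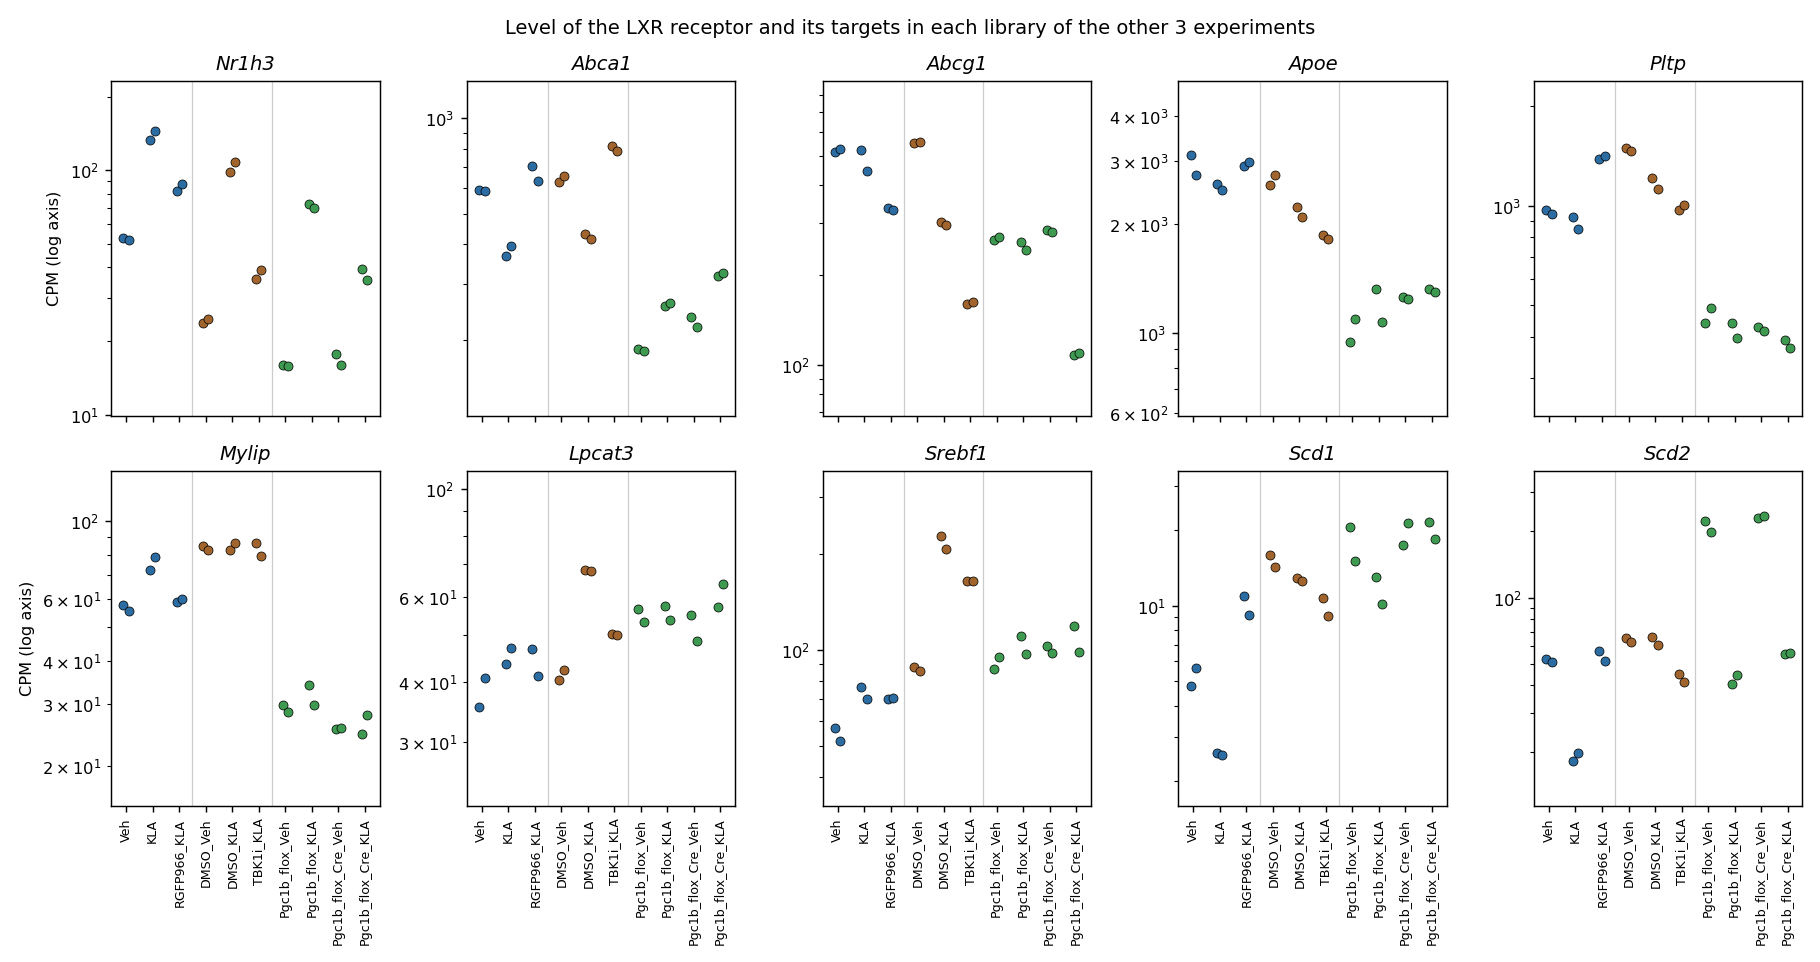
Level of each member in CPM (log axis) in the 20 libraries of the RGFP966 (blue), TBK1i (brown) and Pgc1b (green) experiments, with 1 point per library. Nr1h3 is higher in every KLA group than in its vehicle group and lower again with RGFP966, TBK1i or Cre. The 3 count tables were scaled separately.

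Set side by side, the 4 perturbations of KLA-treated cells had 1 called member in common. Nr1h3 was called lower in NKO (-1.54), with RGFP966 (-0.71), with Pgc1b flox Cre (-0.93) and with TBK1i (-1.47), in experiments with separate control libraries. The share of all genes called lower in all 4 is not given here, so this overlap has no background beside it. Many genes were called lower in each contrast alone, by the shares given above. NKO_KLA also differed from WT_KLA in date and in Xist, so the NKO value cannot be assigned to genotype. Abca1 was lower in NKO and called higher with RGFP966 and TBK1i. Abcg1 was higher in NKO and called lower with Cre and TBK1i. Scd1 was called higher with RGFP966 and Cre and not in NKO, where its log2 fold change of 0.58 was just under the fold limit. Mylip and Lpcat3 were called in none of the 4. Differences between these experiments were not tested, apart from the control comparisons above.

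**Figure D5:**
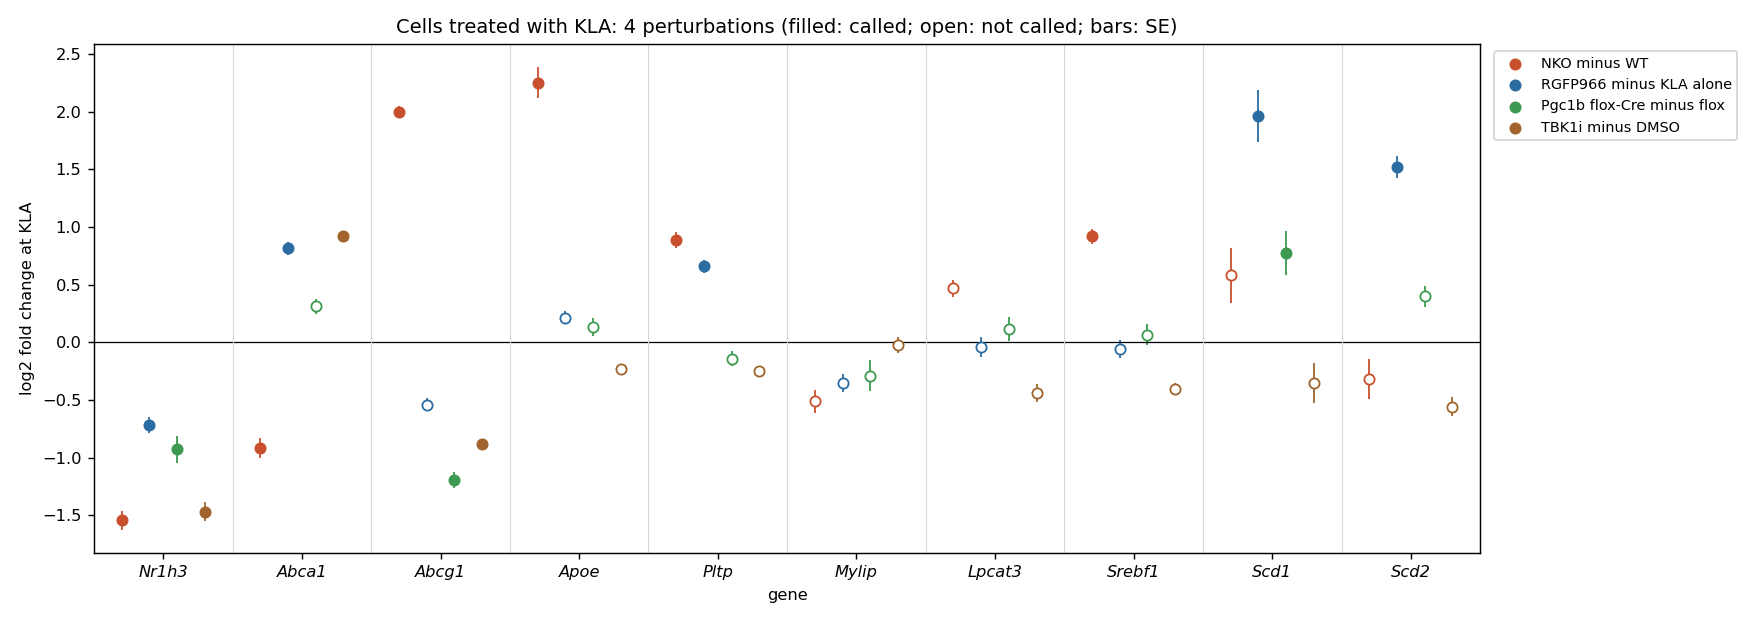
Log2 fold change of each member in KLA-treated cells for NKO against WT, RGFP966 with KLA against KLA, Pgc1b flox Cre against flox, and TBK1i against DMSO, with the SE as bars, filled points for called differences and open points for the others. Nr1h3 is filled and below 0 in all 4, while Abca1 and Abcg1 lie on both sides of 0. The NKO and WT libraries at KLA also differ in date and in Xist.

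Other genes of the pathway were counted in lists. Of 10 genes for partners and cofactors of the LXRs, Ncor1 was called lower in all 6 NKO comparisons (-1.41 to -1.78). Tbl1xr1, which encodes a subunit of the same corepressor complex, was called higher in 5 of them (0.64 under vehicle, 1.28 at PolyIC) and after RGFP966 (1.45). Rxra, the RXR partner, fell after KLA in all 4 control sets (-3.13 in WT, -2.14, -2.15 and -1.15 in the RGFP966, DMSO and Pgc1b_flox sets). Among 18 tested genes of 21 other LXR targets, 1 was called higher and 1 lower in NKO under vehicle (all genes, 2.40% and 3.80%), which were the lipogenic cofactor Mid1ip1 (0.94) and Cd5l (-0.83). At RANKL 6 were higher and none lower (all genes, 6.21% and 6.99%), and at PolyIC 4 and none (3.01% and 2.92%). At KLA 4 of the 18 were higher and 4 lower, near the share of all genes (21% and 19%). Their median log2 fold change under vehicle was 0.11, against 0.68 for the 10 members.

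Of the enzymes that make LXR ligands, Ch25h and Cyp27a1 changed in opposite directions after KLA. Ch25h, the cholesterol 25-hydroxylase, was near the counting floor in the vehicle groups of the 4 control sets (means of 0.154 to 0.60 CPM, n = 2 each) and was called higher after KLA in each, at a mean of 49.6 CPM in WT_KLA, 44.7 CPM in KLA, 64.5 CPM in DMSO_KLA and 134 CPM in Pgc1b_flox_KLA. At KLA it was lower with RGFP966 (-1.23), Cre (-2.16) and TBK1i (-2.94), and higher in NKO (2.75). NKO_KLA also differed from WT_KLA in date and in Xist, so the NKO value cannot be assigned to genotype. The shares of all genes called in these contrasts are given above. Cyp27a1, the sterol 27-hydroxylase, fell after KLA in the same sets (-2.28 to -3.12).

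Genes of cholesterol synthesis and uptake that answer to SREBP2, the sterol-sensing relative of SREBP1, were counted as a contrast to the LXR targets. Of 10 such genes, 4 were called higher in NKO under vehicle (2.40% of all genes), among them Sqle (1.20) and Hmgcs1 (0.64). At IL4 5 were higher (1.90% of all genes), at IFNb 5 (1.86%), at PolyIC 3 (3.01%) and at RANKL 8 (6.21%), and none was lower in these 5 conditions. At KLA 6 were called lower in NKO, led by Hmgcs1 (-2.36) and Sqle (-2.29), and none higher, beside 19% and 21% of all genes. NKO_KLA also differed from WT_KLA in date and in Xist, so these calls cannot be assigned to genotype. Between WT_KLA and WT_Veh, 9 of the 10 were called higher (Idi1 by 3.00) and Fdft1 lower (-1.24), beside 25.4% of all genes called higher and 32.3% lower. These groups were stamped 115 days apart, so KLA and date cannot be told apart here.

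As a description of pattern, the genes whose log2 CPM ran most closely with each member over the 24 libraries of the first experiment were picked from 9795 genes by Pearson's r. The points share libraries, dates and conditions, so no test was made. Nr1h3 ran with Acp2 (r = 0.980), Phactr1 and Limd2, and Srebf1 with Brd2 (0.978), Mtus1 and Cited2. Abca1 ran with Gpnmb (0.943), Mfge8 and Plxna1, Abcg1 with Ube3b (0.972), Csf2rb2 and Pik3r4, and Pltp with Anpep (0.972), Ctsa and Sirt2. Scd1 ran with Mmp12 (0.952), Bcap31 and Acp5, and the gene closest to Scd2 was Scd1 (0.896), followed by Il1rl2 and Mmp12. Lpcat3 was closest to Acaca (0.887), the gene of acetyl-CoA carboxylase, then to Siglecf and Lss. Mylip was closest to Mamld1 (0.913), Adamts1 and Stat6, and Apoe to Lamtor2 (0.858), Zdhhc12 and Mthfsd. Among the members, the r of Nr1h3 was 0.13 with Abca1, 0.25 with Abcg1 and 0.67 with Srebf1.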

How the data were processed

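RNA-seq libraries from mouse BMDMs were analysed from 4 tables of whole-number counts of reads per gene, deposited by the authors without normalization. The submitters' processing notes name STAR, HOMER, DESeq2 and mm10, without versions. The header command names no strand option, whereas the methods describe strand-specific counting. Genes were kept by edgeR's filterByExpr, scaled by TMM within each table and tested with edgeR 4.0.16 (R 4.3.3) by quasi-likelihood on all groups of a table, with Benjamini-Hochberg adjustment over all genes tested (13407, 12196, 12205 and 12332 in the NCoR, RGFP966, Pgc1b and TBK1i tables). The group was the only model term. A difference was called when its adjusted p was under 0.05 and it exceeded 1.5-fold. CPM is TMM-scaled counts per 1000000 counts, and TPM divides counts by exon length. SE is the log2 fold change divided by the square root of its F statistic. The scripts were tested on simulated data. Groups came from the sample labels, and no sample was left out. All 22 replicate pairs differed by more than sampling noise.

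The members and gene lists were chosen with earlier results of these data known. All 10 members are named. From the other lists, genes called in a comparison are named, at most 6 by size among those of at least 5 CPM in 1 group, besides genes named to give a count or a level, and 3 genes per member by Pearson's r. Some genes of these lists are not reported here. Alternatives were DESeq2 1.42.0, its size factors in edgeR, no filter on low counts, no fold limit, the compared groups alone, the replicate block, each library left out, Scd1 and Scd2 summed, a joint fit of the KLA groups, and, chosen after seeing the data, a fit of the vehicle date only. Tables and figures were made with Python 3.11.15, pandas 2.3.3 and matplotlib 3.10.9.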

Additional observations from a re-analysis of the deposited data

Results flagged for a closer look

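The NKO difference of several members was not the same under a stimulus as under vehicle, by an interaction term in edgeR on the log2 scale (with the limits given above). None of the 10 members was called in this way for IL4 (all genes, 0.351% higher and 0.254% lower) or IFNb (0.552% and 0.0522%). At an adjusted p below 0.05 alone, 1 and 0 members passed, with no share of all genes given for that limit.

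For PolyIC, 3 members were called, beside 2.13% of all genes higher and 1.10% lower. The terms were 0.77 for Abca1, -0.66 for Mylip and -1.04 for Scd1. Without WT_PolyIC replicate 2 those of Mylip (-0.48) and Scd1 (-0.82) were not called.

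For RANKL, 4 members were called, beside 7.26% and 6.97% of all genes. The terms were -0.86 for Abcg1, 0.94 for Apoe, -2.04 for Scd1 and -0.85 for Scd2. That of Apoe had an adjusted p of 0.0624 in edgeR when only the compared groups were fitted.

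For KLA, 7 members were called, beside 19.9% and 17% of all genes. The terms were 2.36 for Apoe and 1.22 for Abcg1. They were below 0 for Scd1 (-3.38), Scd2 (-3.08), Abca1 (-2.08), Nr1h3 (-1.04) and Mylip (-0.87). WT_KLA, NKO_KLA and the vehicle libraries carry 3 different date stamps, which cannot be told apart from KLA and genotype here. NKO_KLA also differed from the others in Xist.

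The Pgc1b Cre difference at KLA departed from that at vehicle for Abcg1 (-1.28), Nr1h3 (-1.01) and Scd1 (0.65), beside 11.6% and 11.2% of all genes. The Scd1 term was not called with DESeq2 (adjusted p = 0.1102), with DESeq2's size factors (adjusted p = 0.05079 in edgeR), with Scd1 and Scd2 summed (0.35), or without any of 4 single libraries (0.42 to 0.56). The summed counts are mostly Scd2, whose own term was not called (0.26).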

How the results depend on the processing

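Among 3460 repeats of the 300 member results, 73 uncalled values changed sign. By the threshold, 3311 repeats kept their side of it, 35 lost a call, 112 gained one (80 of these without the fold limit) and 2 turned round. Both were Scd1 summed with Scd2, namely NKO_RANKL against NKO_Veh (1.03) and Pgc1b_flox_Cre_KLA against Pgc1b_flox_Cre_Veh (-1.72), which by construction carry the larger Scd2 counts. Without the fold limit, counts of called members in NKO against WT became 9 at IL4, 8 at PolyIC and 8 at RANKL, and 1 for the IL4 interaction. In the same setting the stimulus counts became 4 for IFNb and 8 for PolyIC in WT cells, 6 for IL4, 5 for IFNb, 8 for PolyIC and 10 for KLA in NKO cells, and 8, 6 and 5 for KLA in the RGFP966, Pgc1b_flox and Pgc1b_flox_Cre sets. Those of the perturbations became 8 for RGFP966, 5 for Cre at KLA, 1 for Cre at vehicle and 8 for TBK1i. The shares of all genes without the fold limit are not given here, so these counts have no background beside them. Leaving out 1 library each gave 1 to 3 called members for the PolyIC interaction, 0 to 1 for IFNb in NKO cells and 2 to 4 for IL4 in WT cells. For NKO against WT it gave 4 to 7 at RANKL and 6 to 8 at KLA. For PolyIC in WT cells it gave 4, against 3 with all libraries. The replicate numbers did not pair the libraries (correlation of deviations over 24 comparisons from -0.0596 to 0.0501, median 0.0014), and with the replicate block all 300 results kept their call, for example 6 members called in NKO_Veh against WT_Veh. With 2 libraries per group of unstated origin, effects near 1.5-fold and Scd1 at a few CPM are the least certain values.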
